A study of Caenorhabditis elegans with 6 samples.

Results

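The reporter carried by these Caenorhabditis elegans worms is described here through 8 rows of the deposited small RNA tables, of 46761 rows in each table. They were chosen by name. There are 5 rows for pieces of the transgene, which are the fluorescent protein sequence mCHERRY, the daf-21_promoter, the unc-54_3UTR_corrected, and C.Briggsae_unc-119+ and CB-unc-119+, both named after the Caenorhabditis briggsae unc-119 gene used to rescue the strain. The other 3 rows are worm genes named like those pieces. daf-21 encodes the chaperone Hsp90 and is listed as hsp-90 in recent annotations, unc-54 encodes the major myosin heavy chain of body-wall muscle, and unc-119 encodes a lipid-binding trafficking protein needed in neurons. RefSeq places these protein-coding genes on chromosomes V, I and III.

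All 6 libraries come from strain BCN1050 in the N2 background, and every group therefore carries the unc-119(ed3) III mutation and the integrated array crgIs1002, in which pdaf-21 drives mCherry with an unc-54 3'UTR beside unc-119(+). The 3 High libraries descend from P0 worms kept at 25 °C and the 3 Low libraries from P0 worms kept at 16 °C. P0 animals of both groups were moved to 20 °C as L4 larvae, 12 to a plate. For their F1 the labels give 4.5 days of growth at 20 °C. The F2 grew at 20 °C for 72 hours at 1000 worms per plate. RNA was taken from whole gravid F2 adults, so each library pools many animals of 1 strain with 1 array. The sequenced worms themselves had not lived at 25 or 16 °C. The submitters name the libraries biological replicates.

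Worms silence foreign and repeated DNA with small RNAs. 22G RNAs are antisense copies made on a target transcript by RNA-dependent RNA polymerases and loaded into worm Argonautes, where they can silence the target or, with CSR-1, license its expression. 26G RNAs are primary small RNAs that trigger 22G production, and 21U RNAs are the piRNAs, which guide the Argonaute PRG-1 to foreign sequence in the germline. Arrays that hold many copies of a transgene are a known target of such silencing in the germline.

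The values are normalized counts, which are reads per row divided by a size factor of the library. Whole reads per library numbered 1380170 to 2685999 in the 22G class, 18704 to 37706 in the 26G class and 37630 to 59648 in the 21U class. The header of Low replicate 1 carries a library number apart from the run of the other 5, and what it marks is not given. This library had the fewest 22G reads and the highest normalized totals of the 26G and 21U classes. The total of normalized 22G counts was 2081401 ± 33562 for High libraries against 2057071 ± 32231 for Low ones (SD, n = 3; exact permutation p = 0.4), and those of the 26G and 21U classes gave p = 0.3 and p = 0.1 in the same exact test. The sources used here do not give the strand counted, the class definitions or how multi-mapping reads were counted. Fragments of the mRNA itself therefore cannot be told apart from antisense 22G RNAs. Small RNAs over a gene do not measure its mRNA, so cell markers describe only which genes carry small RNAs: 8 of 8 germline marker genes had a mean of at least 5 22G counts and 0 of 8 sperm marker genes did. The summed sperm marker counts were low and lay apart, at 22.9 to 24.0 in High and 6.06 to 16.0 in Low, and their part in the results was not tested.

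In the 22G class the transgene rows did not all move the same way between High and Low worms. The promoter and 3'UTR rows may hold reads of the genes daf-21 and unc-54, which was not tested. 22G signal over mCHERRY rose by 1.28-fold and over the unc-54 3'UTR row by 1.25-fold in High, while the daf-21 promoter row did not pass the test. 22G signal over the C. briggsae unc-119 rows fell to 0.464 and 0.459 of the Low level. Among the worm genes of the same names, unc-54 rose by 1.27-fold, unc-119 fell to 0.476 of Low, and daf-21 did not pass. Of the 8 rows, 8 had enough signal for a test, 3 were higher in High, 3 were lower and 2 were not called, where limma called 8.3% of the 9402 tested features, 5.64% as higher and 2.66% as lower. edgeR and DESeq2 called the same 6 rows, against 8.25% and 7.46% of all tested features. These 6 rows had no overlap between the groups, which was also true of 22.7% of tested features. The rows are not independent, because they may share sequence and reads. Of the 357 features with a mean of at least 1000, as most of these rows have, 23% were called. In whole worms, a change in the cells that carry a small RNA and a change of its level per cell cannot be told apart.

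**Figure D1:**
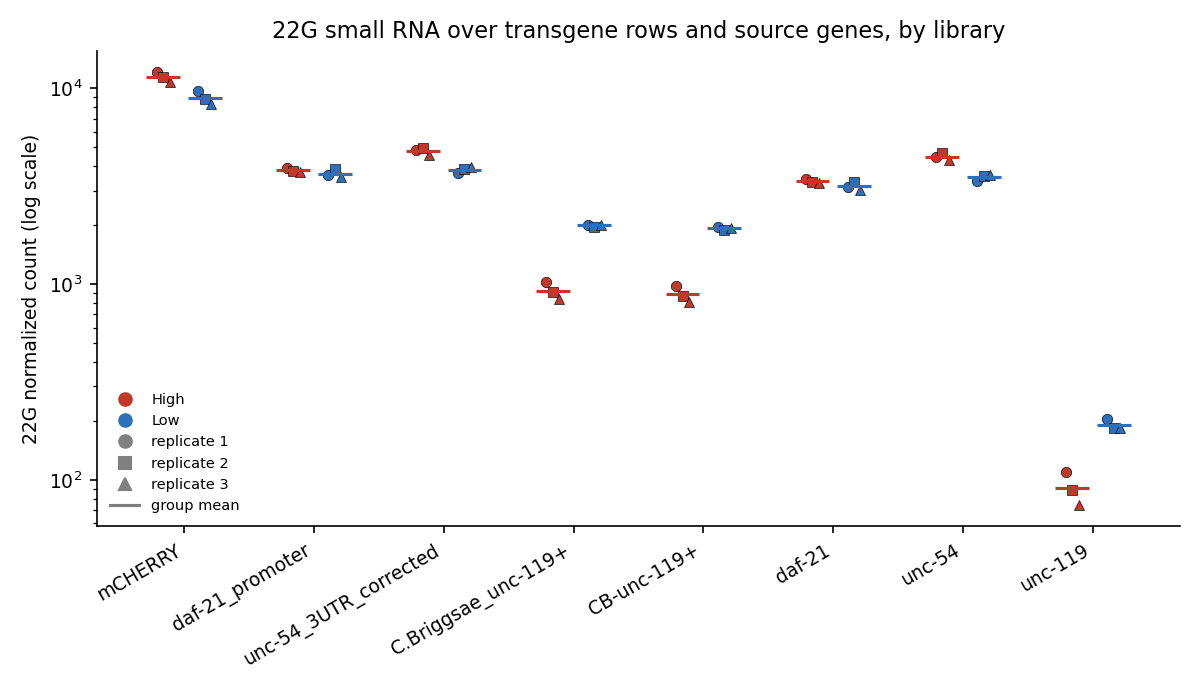
Normalized 22G counts (log axis) of each transgene row and source gene, with 1 point per library (red High, blue Low, shape for replicate) and a line at the mean of each group of 3. The High points lie above the Low points for mCHERRY, unc-54_3UTR_corrected and unc-54 and below them for the C. briggsae unc-119 rows and unc-119.

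mCHERRY encodes the reporter protein and has no counterpart in the worm genome. High replicates 1 to 3 had 12090.0, 11417 and 10844 normalized 22G counts, whereas Low replicates 1 to 3 had 9737, 8788 and 8300.0. Every High library was above every Low library, and these counts rest on 6425 to 13250 reads per library. The High mean was 11450.3 ± 624 and the Low mean 8942 ± 731 (SD, n = 3), which gave a log2 difference of 0.36 ± 0.07 (SE) with an adjusted p of 0.00464 by limma. edgeR and DESeq2 on the recovered reads also made the call (adjusted p = 0.00946 and 6.98e-05), but limma without a trend in the variance did not (adjusted p = 0.165). Without Low replicate 1 the log2 difference was 0.42, and without High replicate 3 it was 0.40 with a limma adjusted p of 0.048.

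By count, mCHERRY was among the top rows of the whole table. It ranked 11, 11 and 13 in the High libraries and 19, 23 and 27 in the Low libraries, a count rank that takes no account of length. Its share of all 22G signal was 0.55% ± 0.0212 for High against 0.434% ± 0.0286 for Low (SD, n = 3). Of all tested features, at any level, 26.5% had a larger log2 difference than mCHERRY in either direction. Its size was not compared with features of a like level alone. For comparison, the log2 differences of all tested features had a median of 0.01 and ran from -0.66 at the 5th to 1.08 at the 95th percentile.

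**Figure D2:**
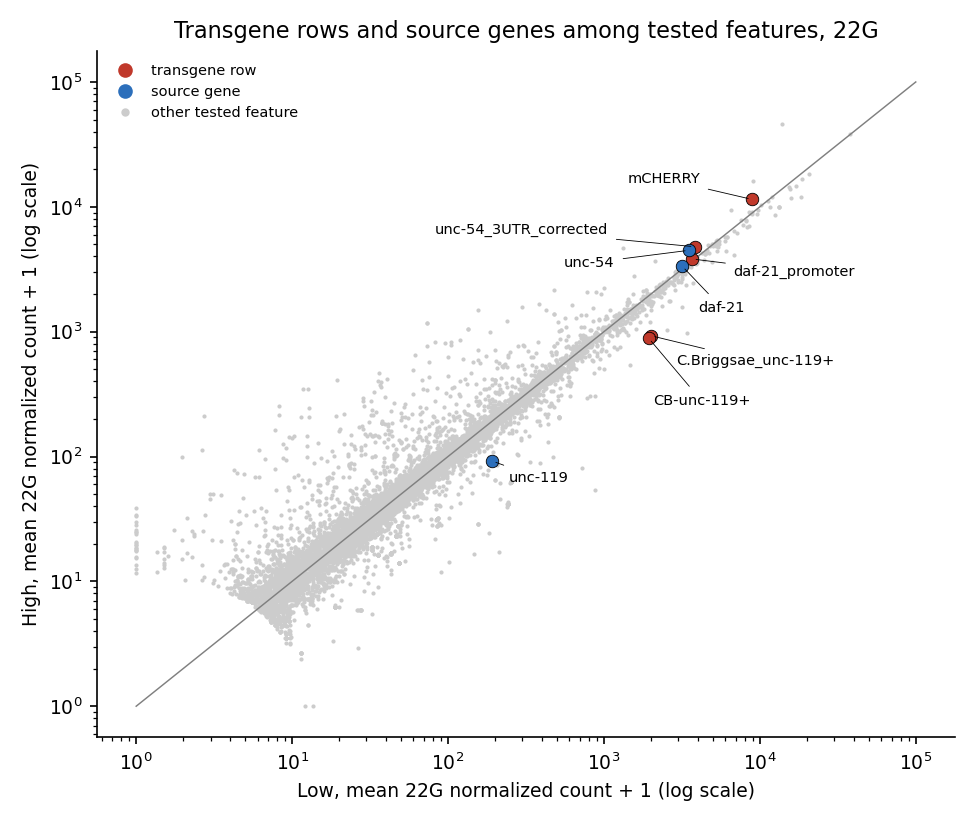
Mean 22G normalized count plus 1 in Low (x) and High (y), both on log axes, for the 9402 tested features (grey), the 5 transgene rows (red) and the 3 source genes (blue), with a line of equality. mCHERRY lies near the top of the cloud just above the line, and the unc-119 rows lie below it.

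The daf-21_promoter row covers the sequence that drives the reporter in many tissues. The High libraries held 3932, 3787 and 3747 normalized 22G counts of it and the Low libraries 3616, 3859 and 3534. The groups overlapped, since Low replicate 2 lay above High replicates 2 and 3. The log2 difference was 0.06 ± 0.05 (SE, n = 3) with an adjusted p of 0.675 by limma. The gene daf-21, which encodes the Hsp90 that folds kinases and hormone receptors, had 3441, 3332 and 3288 in the High libraries against 3132, 3344 and 3024 in the Low ones. These groups overlapped as well, and the log2 difference was 0.08 ± 0.06 (limma adjusted p = 0.529).

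The pair of daf-21 rows varied together. The gene row held 85.6% to 88% as many counts as the promoter row in each of the 6 libraries, and their log2 values had a Pearson correlation of 0.987 over the 6 libraries, which share depth and may share reads. The promoter row exceeded the gene row by 468 ± 19.7 counts for High and 503 ± 16.7 for Low (SD, n = 3). In Ensembl release 115 daf-21 has 2 transcripts whose lower chromosome coordinates lie 1242 bases apart. The strand was not read, so which end of the gene this is, and whether the promoter piece lies there, was not tested. The sources used here do not say whether the authors' annotation had this model, and so whether the same reads entered the promoter row and the gene row.

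The 3'UTR row stands for the end of the unc-54 muscle myosin gene, a piece used in many worm transgenes to end the transcript. The High libraries held 4845, 4961 and 4550.2 normalized 22G counts and the Low libraries 3684, 3885 and 3953, so the groups did not overlap. The log2 difference was 0.32 ± 0.06 (SE, n = 3); the limma adjusted p was 0.00297, or 0.157 without a trend in the variance. The unc-54 gene had 4481, 4669 and 4306 in the High libraries against 3375, 3583 and 3609 in the Low ones, also without overlap. Its log2 difference was 0.35 ± 0.05 (limma adjusted p = 0.00139, and 0.119 without a trend).

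The unc-54 gene row never exceeded the 3'UTR row and held 91.3% to 94.6% as many counts. Of a list of 29 myosin and thick filament genes, 15 had a mean of at least 5 normalized 22G counts and 14 did not. Among the latter were 4 genes picked after their values were seen. The second body-wall myosin gene myo-3, the pharyngeal myosin gene myo-1 and the paramyosin gene unc-15 had 0 reads in all 6 libraries, which allows up to 3 reads in a library, and the pharyngeal gene myo-2 reached at most 1.64 normalized counts. Averaged over all annotated exon, unc-54 carried 723 ± 29.3 normalized counts per kilobase for High and 568 ± 20.7 for Low (SD, n = 3). For myo-3 this was 0. Where along the gene the unc-54 reads lie was not tested. How many of the unc-54 reads come from the transgene and how many from the gene was not tested.

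The unc-119 rows stand for the selection marker, which restores movement to the unc-119(ed3) mutant. C.Briggsae_unc-119+ had 1031, 911 and 841 normalized 22G counts in the High libraries but 2013, 1959 and 2011 in the Low ones. The lowest Low library was far above the highest High library, and the 3 Low libraries lay close together. Means of 928 ± 95.7 and 1994 ± 30.6 (SD, n = 3) gave a log2 difference of -1.11 ± 0.07 (SE) with an adjusted p of 2.74e-06 by limma. CB-unc-119+ held 95.3% to 97.4% as many counts as that row in each library and fell by 1.12 ± 0.07 on the log2 scale (limma adjusted p = 2.24e-06). These falls were wider than most, since 7.34% and 7.21% of tested features had a larger log2 difference in either direction.

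The worm gene unc-119 carried far fewer reads, 91 to 240 per library. Its normalized counts were 110.1, 88.8 and 74.5 in the High libraries against 205, 183 and 183 in the Low ones, without overlap. The log2 difference was -1.07 ± 0.14 (SE, n = 3; limma adjusted p = 0.000402). unc-119 stood at 8.85% to 10.7% of the C.Briggsae_unc-119+ row, and their log2 values had a Pearson correlation of 0.987 over the 6 libraries. Both rows fell in High without overlap, which by itself gives a high correlation, so this value adds nothing to the calls. Reads of the C. briggsae copy that also match the worm gene could be counted here, which was not tested. unc-119 is also a neuronal marker, and the 7 neuronal marker genes, unc-119 included, had summed 22G counts of 550.0 to 564.8 in High and 304 to 321 in Low. This sum was higher in High although unc-119 itself was lower, so the counts of the other listed genes, added together, went the opposite way. The gene with the most counts could set such a sum alone, and how many of the genes rose is not given. 5 of these 7 genes had a mean of at least 5 counts, 1 had no read, and their part in the unc-119 result was not tested.

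**Figure D3:**
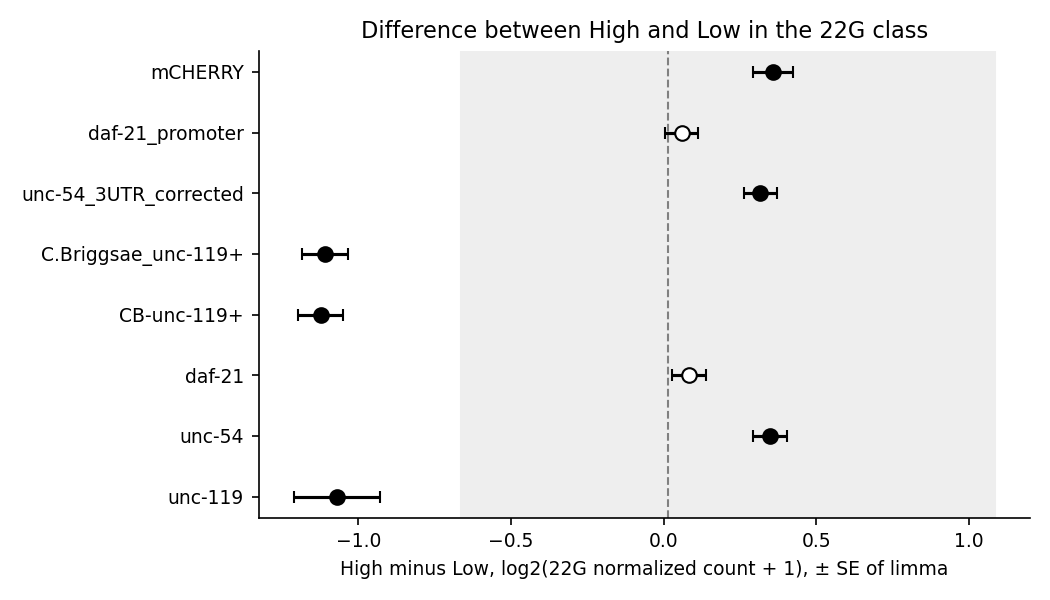
High minus Low difference of log2(22G normalized count + 1) with the SE of limma (bars) for each transgene row and source gene, filled where the limma adjusted p is under 0.05. The grey band spans the 5th to 95th percentile of the 9402 tested features (-0.66 to 1.08), and the dashed line is their median.

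Ratios within a library do not depend on the size factor, and 7 pairs were compared. With 3 against 3 libraries the exact permutation test has 20 assignments and a smallest two-sided p of 0.1, so that no pair could pass, and adjusted over the 7 pairs the smallest value was 0.14. All ratios are of counts, not per length.

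The ratio of mCHERRY to C.Briggsae_unc-119+, both on the same array, differed most. It was 11.7, 12.5 and 12.9 in the High libraries against 4.84, 4.49 and 4.13 in the Low ones, so every High library was above every Low library. The log2 ratio was 1.47 ± 0.08 (SE, n = 3) higher in High (exact p = 0.1). mCHERRY to its promoter row stood at 3.08, 3.01 and 2.89 in the High libraries against 2.69, 2.28 and 2.35 in the Low ones, a log2 difference of 0.30 ± 0.08 (exact p = 0.1). mCHERRY to daf-21 was 3.51, 3.43 and 3.30 for High against 3.11, 2.63 and 2.74 for Low (0.27 ± 0.08, exact p = 0.1). Here too the groups did not overlap, with Low replicate 1 nearest to High.

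mCHERRY and the 3'UTR row kept a ratio that overlapped between groups, at 2.30 to 2.50 in High and 2.10 to 2.64 in Low. The log2 difference was 0.04 ± 0.10 (SE, n = 3; exact p = 0.8), and without Low replicate 3 it turned to -0.03. C.Briggsae_unc-119+ to unc-119 was 9.36, 10.3 and 11.3 for High against 9.84, 10.7 and 11.0 for Low. These overlapped, with a log2 difference of -0.04 ± 0.09 (exact p = 0.7) that turned to 0.03 without High replicate 1.

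The ratio of a transgene row to its source gene was close to 1 in the daf-21 and unc-54 pairs. The same reads may have entered both rows of a pair, which was not tested, so these ratios do not compare transgene with gene. daf-21_promoter to daf-21 was 1.14 ± 0.00299 for High against 1.16 ± 0.00848 for Low, and unc-54_3UTR_corrected to unc-54 was 1.07 ± 0.0129 against 1.09 ± 0.00553 (SD, n = 3). In both pairs every High ratio was below every Low ratio (exact p = 0.1 each), by 0.02 ± 0.01 and 0.03 ± 0.01 in log2 (SE).

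**Figure D4:**
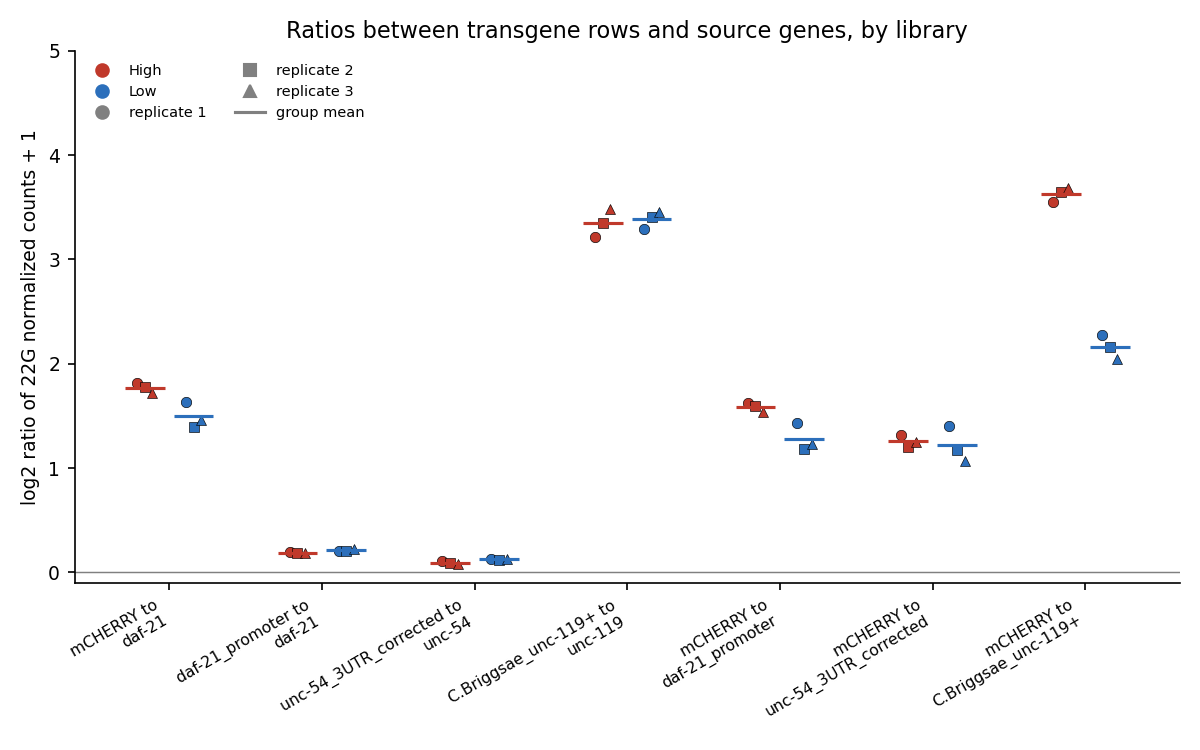
log2 ratio of 22G normalized counts plus 1 for the 7 pairs, with 1 point per library (red High, blue Low, shape for replicate) and a line at each group mean. mCHERRY to C.Briggsae_unc-119+ shows the widest gap, 3.63 in High against 2.16 in Low.

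26G and 21U reads over the same rows were rare. The class definitions are not given, so whether the 21U reads over these rows are piRNAs was not tested. Of all reads over mCHERRY in the 3 classes 99.7% were 22G, 0.293% 21U and 0.0349% 26G, where all features together had 96.8%, 2.12% and 1.12%. The 22G share was between 99.6% and 99.9% for each of the 8 rows.

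In the 21U class 3 rows reached a mean of 5 normalized counts and were tested, and 0 of the 3 were called, where limma called 0.169% of 592 features. mCHERRY had 40.7, 31.1 and 25.4 normalized counts in the High libraries against 19.7, 36.7 and 22.2 in the Low ones, from 13 to 48 reads per library. The groups overlapped and the log2 difference was 0.32 ± 0.34 (SE, n = 3; limma adjusted p = 0.619). That difference kept its sign and stayed without a call, but its size was 0.71 under TMM scaling, 0.55 with equal class totals and 0.15 without High replicate 1 or without Low replicate 1, and 0.58 without Low replicate 2. The median of all tested 21U features was -0.38, which moved to -0.02 under TMM scaling. unc-54_3UTR_corrected had 15.4, 13.3 and 12.3 for High against 13.6, 17.6 and 14.8 for Low (-0.15 ± 0.29, limma adjusted p = 0.772). unc-54 had nearly the same values (-0.14 ± 0.29, limma adjusted p = 0.782), and for both the sign turned under TMM scaling. unc-119 had 0 21U reads in all 6 libraries, which allows up to 3 reads in a library and covers counting error only. The other 4 rows were below the minimum, with 15 to 32 reads over the 6 libraries.

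In the 26G class 1 of the 8 rows was tested, and limma called 0% of 272 features, with 3 at an unadjusted p under 0.05, 0 by edgeR, 0 by DESeq2 with its default dispersion fit and 7 by DESeq2 with a local fit. The daf-21_promoter row had 6, 7 and 3 whole reads in the High libraries against 7, 4 and 5 in the Low ones. These overlap, and the log2 difference was -0.21 ± 0.63 (SE, n = 3; limma adjusted p = 0.847). That sign turned under TMM scaling, which moved the median of all tested 26G features from -0.53 to 0.03. daf-21, just under the minimum with a mean of 4.75 normalized counts, had 7, 8 and 3 reads for High against 5, 2 and 2 for Low. mCHERRY had 6, 5 and 0 against 5, 3 and 3. C.Briggsae_unc-119+ had 0 reads in each High library and 1 in each Low library, all under the floor of 3 reads, so no fold is given.

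**Figure D5:**
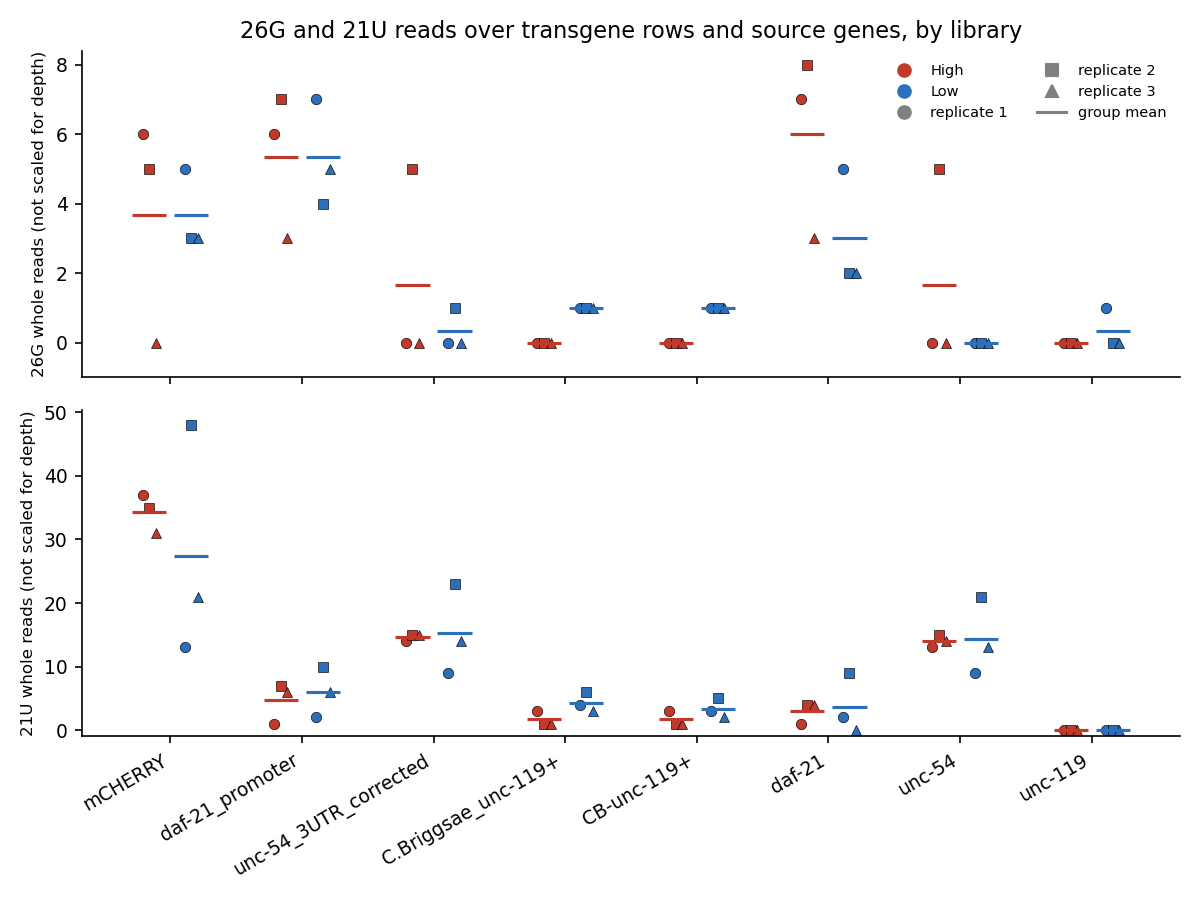
Whole reads, not scaled for depth, of the 26G class (top) and 21U class (bottom) over each row, with 1 point per library (red High, blue Low, shape for replicate) and a line at each group mean. mCHERRY has the most 21U reads (13 to 48 per library) and no row exceeds 8 26G reads.

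The genes next to the source genes on the chromosome gave no call, where limma called 8.3% of all tested 22G features. So few genes cannot show whether a change reaches beyond the source genes. C47E8.4 beside daf-21 had 381 ± 10.4 normalized 22G counts in the High libraries against 429 ± 22.5 in the Low ones (SD, n = 3; limma adjusted p = 0.256). F11C3.1 beside unc-54 had 317 ± 26.8 and 372 ± 23.7 (0.184), and com-1 beside unc-119 had 73.3 ± 18.3 and 64.4 ± 0.661 (0.774). C47E8.11 and str-245, the neighbours on the other side of daf-21 and unc-54, had means under 10 and did not pass, and cut-6 beside unc-119 was below the minimum.

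Genes that work with the source genes were tested from 4 lists, of which 1 held calls, where 8.3% of all tested features were called, 5.64% as higher and 2.66% as lower. Of 18 tested Hsp90 partners, the co-chaperones and related folding factors, 0 rose and 0 fell in 22G signal, with a median log2 difference of 0.06 against 0.01 for all tested features. The Hsc70 gene hsp-1 had 542 ± 18.4 normalized counts for High against 521 ± 24.7 for Low (limma adjusted p = 0.777). The list member ddl-1 had 655 ± 18.6 and 701 ± 28.6 (0.531). Of 15 tested myosin and thick filament genes 0 rose and 0 fell (median 0.00), with the class V myosin gene hum-2 at 1527 ± 8.84 and 1511 ± 52.1 (0.931) and the non-muscle myosin gene nmy-2 at 335 ± 23.2 and 318 ± 21.4 (0.766).

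Of 9 tested genes for lipidated cargo and ciliary transport, the setting in which UNC-119 and the small GTPase ARL-3 act, 2 rose and 0 fell (median 0.07), against 5.64% higher and 2.66% lower over all tested features. The ciliary GTPase gene arl-13 had 743, 707 and 692 normalized 22G counts in the High libraries against 252, 159 and 191 in the Low ones, with no overlap (1.85 ± 0.14, limma adjusted p = 5.45e-06). The intraflagellar transport gene dyf-2 had 93.6, 124 and 74.5 for High against 13.6, 11.5 and 9.53 for Low (2.95 ± 0.23, limma adjusted p = 8.26e-06). rpi-2, homologous to the human retinitis pigmentosa gene RP2, had 1774 ± 69.3 and 1951 ± 38.2 (0.209). arl-13 and dyf-2 rose where unc-119 fell.

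Of 42 tested genes of transgene and germline silencing, 0 rose and 0 fell (median 0.01), against 8.3% called over all tested features. The nuclear Argonaute gene hrde-1, which carries silencing between generations, had 2665 ± 74.9 normalized 22G counts for High against 2837 ± 181 for Low (limma adjusted p = 0.546). The Argonaute gene wago-4 had 1322 ± 74.95 and 1154 ± 112 (0.203). These are 22G RNAs over the genes and do not measure the proteins.

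Features with the most similar 22G pattern over the 6 libraries were sought among 4989 others with a mean of at least 50, by Pearson correlation of log2 values, as a description. For mCHERRY they were F53G12.4 (r = 0.998), the SR splicing factor gene rsp-3 (0.994) and Y38F2AR.10 (0.992). F53G12.4 rose by 0.33 ± 0.08 and rsp-3 by 0.33 ± 0.08 in log2, close in size to mCHERRY, while Y38F2AR.10 rose by 1.04 ± 0.22 (limma adjusted p = 0.0189, 0.0278 and 0.0108). For the 3'UTR row they were the ataxin-3 gene atx-3 (0.996), islo-1 (0.994) and H14A12.5 (0.993), and the same 3 came up for unc-54.

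For C.Briggsae_unc-119+ they were Y73F8A.33 (r = 0.997), the thioredoxin reductase gene trxr-1 (0.996) and F08G5.3 (0.994). Y73F8A.33 had 294 ± 43.2 normalized counts for High against 779 ± 18.5 for Low (SD, n = 3), a log2 difference of -1.41 ± 0.10. For CB-unc-119+ the features were Y73F8A.33, F22B7.9 and trxr-1, and for unc-119 they were Y46G5A.6, H04D03.3 and trxr-1. For the daf-21 promoter row they were adr-1 of the ADAR family (0.983), hsp-1 (0.980) and rpa-1 (0.977), and for daf-21 adr-1 (0.977), T09B4.9 (0.964) and F42A9.18 (0.961). Each is the highest of 4989 correlations over 6 libraries that share 2 groups, and carries no test.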

How the data were processed

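Small RNA of 18 to 36 bp inserts was sequenced as 50-nt reads from 3 High and 3 Low cultures, from 1 µg of total RNA treated with phosphatase and then kinase, per the labels' protocols. Per the submitters' processing notes the tools were DESeq2 1.8.1, featureCounts 1.4.6, Bowtie 1.1.1 and cutadapt 1.7.1. Genome build, annotation, strand and the handling of multi-mapping reads are not given in the sources. The deposited values are a signal per feature and library, a read count that the authors divided by a size factor (0.66 to 1.31). 100% of nonzero values were whole multiples of 1 step per library (within 0.01 reads), so whole reads were recovered.

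Features with a mean of at least 5 normalized counts were tested with limma-trend (limma 3.58.1, R 4.3.3) on log2(value + 1), two-sided, High minus Low. p-values were adjusted by Benjamini and Hochberg over each class and called under 0.05. Folds refer to the log2(value + 1) scale, which understates those of low rows. Nothing was left out. Ratios used an exact permutation test over 20 assignments. Python 3.11.15 and Matplotlib 3.10.9 drew the figures. edgeR 4.0.16 and DESeq2 1.42.0 on recovered reads were alternatives and called 776 and 701 features in the 22G class against 780 by limma, with 766 and 675 of the 780 shared. DESeq2 was first run with a local dispersion fit (841 calls), and its default fit was adopted after those counts were seen.

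The rows, gene lists and tests were chosen with earlier results of these data known. All 8 rows are named, then of each list up to 4 called genes and the 2 highest by mean, and the 3 features most like each row. Neighbours were taken by position in RefSeq, assembly WBcel235. Other genes named (myo-1, myo-2, myo-3, unc-15) were chosen after their values were seen. p-values set the difference between groups against the spread between libraries, which limma-trend moderates with that of other features. Replicate numbers did not pair the libraries.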

Additional observations from a re-analysis of the deposited data

Results flagged for a closer look

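Rows named after plasmid and insertion-site pieces, which the strain's label does not name, also carried 22G signal in every library. Over the 6 libraries AmpR, named like an ampicillin resistance marker, had a mean of 134 normalized 22G counts, and ColE1_origin, named like a plasmid origin, had 69.3. ttTi5605_left_recomb and ttTi5605_right_recomb, named after an insertion site used for transgenes, had 160.6 and 234. Each of these rows stood above 3 reads in every library, the limit that a count of 0 allows. The 3 High libraries held 118.9, 103.9 and 111 AmpR counts and the 3 Low libraries 144, 154 and 171, which gives -0.49 ± 0.11 in log2 (SE, n = 3; limma adjusted p = 0.0172), and the other 3 did not pass (limma adjusted p = 0.805 for ColE1_origin, 0.918 for the left and 0.429 for the right piece). For comparison, limma called 8.3% of all tested 22G features, 2.66% as lower. AmpR had 0 26G reads, and no row of the 4 had more than 8 21U reads over all libraries.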

How the results depend on the processing

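Across 18 alternatives, the 22G falls of C.Briggsae_unc-119+, CB-unc-119+ and unc-119 kept their direction and call (log2 differences of -1.19 to -1.04, -1.20 to -1.06 and -1.21 to -0.94), and daf-21 and its promoter row kept theirs without a call. The 22G rises of mCHERRY (0.36), unc-54_3UTR_corrected (0.32) and unc-54 (0.35) each lost their call in limma without a trend only. The number of 22G features called stayed within 524 to 897. In the 26G class the log2 difference of daf-21_promoter turned to 0.32 under TMM scaling, 0.37 with equal class totals, 0.43 in edgeR, 0.15 without High replicate 3 and 0.19 without Low replicate 1, and leaving out 1 library gave -0.57 to 0.19. In the 21U class unc-54_3UTR_corrected turned to 0.22, 0.069 and 0.20 and unc-54 to 0.23, 0.079 and 0.22 under TMM scaling, equal class totals and edgeR. DESeq2 with a local dispersion fit also turned both, to 0.20 and 0.22. The cause was not tested. The 21U class had 1 feature called, against 0 with a replicate block, 28 with no filter, 2 with a minimum mean of 20, 3 under TMM scaling, 2 in edgeR, 4 in DESeq2 with a local dispersion fit and 2 with identical features merged, and 0 to 33 with 1 library left out (33 without Low replicate 1, 20 without Low replicate 2). The 26G class had 0, against 7 in DESeq2 with a local dispersion fit, and 0 to 1 with 1 library left out. That local fit was the first DESeq2 run. The default fit replaced it after its counts (841, 7 and 4 calls in 22G, 26G and 21U) had been seen beside an earlier count for these data, and calls 701, 0 and 1. Both fits call the same 6 of the 8 rows in the 22G class, and the default fit gives the rows tested in 26G and 21U no adjusted p. Without 1 library the log2 ratio of C.Briggsae_unc-119+ to unc-119 ran from -0.10 to 0.028 and that of mCHERRY to unc-54_3UTR_corrected from -0.032 to 0.13. Leaving out a library of the class totals (chosen after seeing the data) changed no sign. Same-numbered libraries correlated by 0.03, 0.05 and 0.02 in their 22G deviations from the group means, and High replicate 3 correlated best with Low replicate 2. With a replicate block 782 features were called in the 22G class, mCHERRY kept its call (limma adjusted p = 0.000494), and no other call of the 8 rows changed. Depth limits the 26G and 21U values, which rest on at most 48 reads per row and library.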
